A study of Mus musculus with 8 samples.

Results

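The proteasome is the barrel-shaped protease that degrades ubiquitin-tagged proteins, and its subunits are described here in mouse liver. Members were the protein-coding genes whose symbol is Psm followed by a letter from a to f and a number, with pseudogene symbols left out. The rule found 46 of the 27453 genes listed, and 42 of them had enough reads to be tested, among 7668 tested genes in all. The 46 comprised 8 alpha subunits of the core, the 3 inducible beta subunits Psmb8, Psmb9 and Psmb10, and 8 other beta subunits. Among these other 8 was Psmb11, the thymus form of Psmb5. There were also 6 ATPases of the regulatory particle and 14 genes classed as its non-ATPases, of which Psmd5, Psmd9 and Psmd10 encode assembly chaperones. A further 5 were activator genes, and Psmf1 was the inhibitor. The last member, Psmc3ip, encodes a meiotic protein that shares the name stem and is not a subunit.

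The core particle is a stack of alpha and beta rings, and 3 of its beta subunits, Psmb5, Psmb6 and Psmb7, carry the active sites. Interferon signalling induces Psmb8, Psmb9 and Psmb10, which take the places of Psmb5, Psmb6 and Psmb7 in newly assembled cores to form the immunoproteasome, known for producing peptides for class I antigen presentation. Psme1 and Psme2, also interferon-induced, form the PA28 cap, an activator that docks on the core in place of the ATP-dependent regulatory particle. Immune cells carry more immunoproteasome than hepatocytes, which make up most of the liver's mass.

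The libraries were nanopore direct RNA libraries, in which each read is one native polyadenylated RNA molecule, from the livers of 8 separate C57BL/6JN mice. There were 4 libraries with titles beginning with O and 4 with titles beginning with Y, and in each set replicates 1 and 2 were male and replicates 3 and 4 female. The labels contradict each other on age. O-titled mice are listed at 12 weeks and Y-titled mice at 80 weeks, whereas the study design describes young animals near 2 months and old animals near 18 months, and the treatment label of all 8 samples calls old the treated group. The groups are therefore named by title, folds are O-titled over Y-titled, and no fold is read as a change with age. No genetic change or agent was given in the labels.

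Mapped reads ranged from 545171 to 2593200 per library, and 3 reads, taken as the floor of detection, corresponded to 1.16 to 5.50 CPM of mapped reads. Levels are in CPM, counts scaled by the TMM-adjusted total of tested genes. All 10 hepatocyte markers of a fixed list were tested, and their summed level ranged from 78181 to 121945 CPM, so the tissue label and the markers matched. In bulk tissue, fewer cells of a type and less RNA per cell cannot be told apart.

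Promoter windows are shown for the inducible subunits Psmb8, Psmb9 and Psmb10, for Psmb5 and Psmb6, whose places the first pair of these take, and for the cap genes Psme1, Psme2 and Psme3, because the results below turn on these genes. Each window holds 250 bases before and 50 bases after the annotated start, from RefSeq on GRCm38.p6, printed 5′ to 3′ on the strand of the gene. Capitals mark matches, on either strand, to 4 motifs: an interferon-response-like motif of GAAA repeated after any pair of bases, a STAT-like motif TTCNNNGAA, an antioxidant-response-like motif TGACNNNGC and the CCAAT box. The windows are Psmb8 at chr17:34197945-34198244 (plus strand), Psmb5 at chr14:54617946-54618245 (minus strand), Psmb9 at chr17:34187281-34187580 (minus strand), Psmb6 at chr11:70525107-70525406 (plus strand), Psmb10 at chr8:105938343-105938642 (minus strand), Psme1 at chr14:55578244-55578543 (plus strand), Psme2 at chr14:55591052-55591351 (minus strand, 1 of 2 windows given for it) and Psme3 at chr11:101315963-101316262 (plus strand).
Psmb8: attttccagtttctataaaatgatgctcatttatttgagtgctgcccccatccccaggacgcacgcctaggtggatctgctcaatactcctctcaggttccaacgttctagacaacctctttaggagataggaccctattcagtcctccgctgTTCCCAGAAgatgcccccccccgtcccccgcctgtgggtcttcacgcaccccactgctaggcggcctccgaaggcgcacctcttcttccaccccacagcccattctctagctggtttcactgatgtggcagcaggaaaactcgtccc
Psmb5: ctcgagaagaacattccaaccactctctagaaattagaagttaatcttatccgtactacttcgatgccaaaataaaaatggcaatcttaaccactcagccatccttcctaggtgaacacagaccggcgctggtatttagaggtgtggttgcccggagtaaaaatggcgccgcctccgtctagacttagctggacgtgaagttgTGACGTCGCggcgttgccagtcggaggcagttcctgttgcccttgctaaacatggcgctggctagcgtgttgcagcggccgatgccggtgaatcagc
Psmb9: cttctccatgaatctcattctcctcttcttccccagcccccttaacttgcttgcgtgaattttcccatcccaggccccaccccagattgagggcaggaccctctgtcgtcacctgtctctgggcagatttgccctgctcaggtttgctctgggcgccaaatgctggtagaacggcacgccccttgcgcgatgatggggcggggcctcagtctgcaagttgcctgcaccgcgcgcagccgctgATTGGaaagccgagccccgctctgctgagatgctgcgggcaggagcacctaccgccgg
Psmb6: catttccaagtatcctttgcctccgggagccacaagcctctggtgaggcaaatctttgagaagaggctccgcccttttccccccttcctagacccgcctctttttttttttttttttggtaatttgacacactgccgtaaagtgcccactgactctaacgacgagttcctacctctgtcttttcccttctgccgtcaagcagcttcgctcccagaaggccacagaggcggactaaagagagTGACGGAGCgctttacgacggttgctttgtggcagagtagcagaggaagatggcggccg
Psmb10: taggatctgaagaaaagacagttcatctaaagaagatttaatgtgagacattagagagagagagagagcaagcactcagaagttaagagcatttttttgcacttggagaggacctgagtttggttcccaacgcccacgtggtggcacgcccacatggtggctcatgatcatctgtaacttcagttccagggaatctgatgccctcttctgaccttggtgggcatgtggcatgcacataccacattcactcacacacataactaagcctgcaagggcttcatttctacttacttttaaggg
Psme1: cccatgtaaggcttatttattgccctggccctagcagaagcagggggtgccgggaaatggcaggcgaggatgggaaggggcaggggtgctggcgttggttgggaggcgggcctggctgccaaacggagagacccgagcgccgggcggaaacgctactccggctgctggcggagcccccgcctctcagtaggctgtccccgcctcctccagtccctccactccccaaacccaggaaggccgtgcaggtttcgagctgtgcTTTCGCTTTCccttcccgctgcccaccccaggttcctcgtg
Psme2: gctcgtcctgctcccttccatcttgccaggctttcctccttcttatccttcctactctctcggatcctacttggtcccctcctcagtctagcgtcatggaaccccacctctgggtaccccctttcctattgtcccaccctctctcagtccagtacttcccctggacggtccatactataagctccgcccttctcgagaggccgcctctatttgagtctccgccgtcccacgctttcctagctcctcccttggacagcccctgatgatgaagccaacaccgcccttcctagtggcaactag
Psme3: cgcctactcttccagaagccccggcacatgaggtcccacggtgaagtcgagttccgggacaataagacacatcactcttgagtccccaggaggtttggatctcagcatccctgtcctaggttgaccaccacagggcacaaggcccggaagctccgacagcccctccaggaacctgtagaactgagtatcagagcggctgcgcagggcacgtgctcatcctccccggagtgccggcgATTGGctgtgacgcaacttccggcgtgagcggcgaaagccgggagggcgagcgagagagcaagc

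The Psmb8 window held a STAT-like match starting 97 bases before its RefSeq start. The Psme1 window held an interferon-response-like match starting at base 10 after its RefSeq start. The Psmb5 and Psmb6 windows each held an antioxidant-response-like match, and the Psmb9 and Psme3 windows each held a CCAAT box on the reverse strand. RefSeq gave 41 windows for 38 of the subunit genes. The interferon-response-like motif was in 4 of the 41, those of Psmb3, Psmd4, Psmd9 and Psme1, and in 3.44% of all 32851 windows. The STAT-like motif was in 2, those of Psmb8 and Psmd2, and in 8.30% of all windows. The antioxidant-response-like motif was in 6 of the 41 and in 12.4% of all windows, and the CCAAT box in 14 of the 41 and in 37.4%. The Psmb10 and Psme2 windows held no match to any of the 4 motifs. These are matches of letters and not measured binding sites.

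Several of these genes are neighbours in the GENCODE annotation of the mm10 genome. Its gene starts can differ from the RefSeq starts behind the windows above. The Psmb8, Psmb9 and Psme1 windows lie wholly inside the GENCODE bounds of these genes. Psmb9 and the peptide transporter gene Tap1 lie on opposite strands of chromosome 17 with starts 211 bases apart and overlapping ends, and Psmb8 lies 495 bases from Tap1 and 2072 bases from Tap2. Psme1 and Psme2 lie on chromosome 14 with 5911 bases between them.

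The inducible subunits and the PA28 cap had the highest log2 folds of O-titled over Y-titled libraries among the members, and 2 of these 5 genes passed the test. With sex as a covariate, edgeR's quasi-likelihood test with Benjamini-Hochberg adjustment over all 7668 genes called 2 of the 42 members, Psmb10 and Psme1, both higher in O-titled libraries, and none lower. Of all tested genes 2.18% were called higher and 1.88% lower. The 3 inducible subunits, Psme1 and Psme2 all had a positive log2 fold at an unadjusted p under 0.05, and no other member did. Over all tested genes 656 of 7668 had a positive log2 fold at that p, and 1236 of 7668 reached it in either direction, as did 7 of the 42 members. Among the other 37 members the log2 fold was positive in 11 and negative in 26, with a median of -0.10 and a range of -0.33 to 0.21, beside a median of 0.01 over all tested genes. DESeq2 called 0 of the members (adjusted p of 0.104 for Psmb10 and 0.131 for Psme1), limma voom called Psmb10, and edgeR without the sex covariate called 0. The fit with the replicate number as a block in place of sex also called 0, with edgeR adjusted p of 0.059 for Psmb10 and 0.0928 for Psme1.

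**Figure D1:**
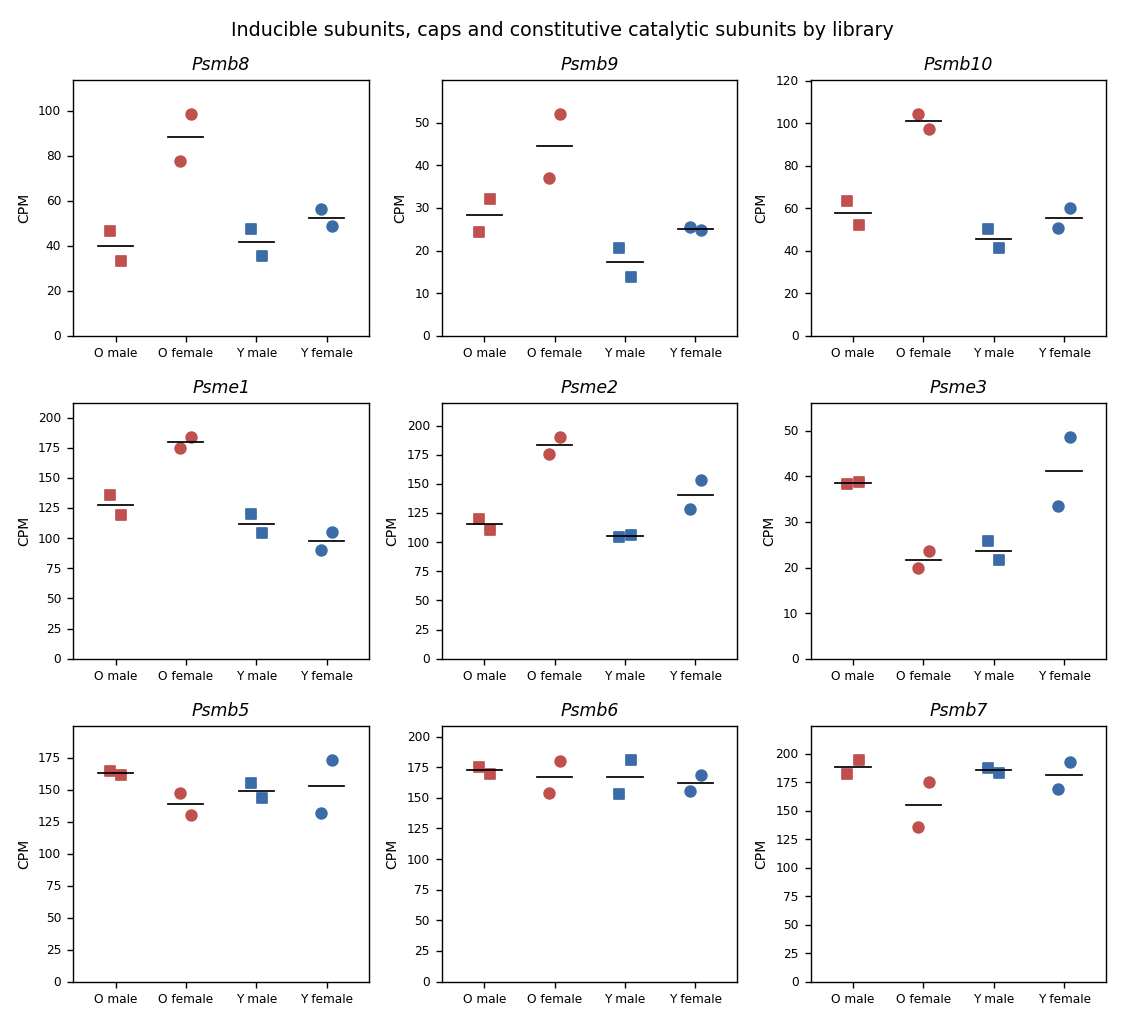
Level in CPM (vertical axes, each from 0) of 9 members in each library, by title letter and sex (horizontal axes). Points are libraries and lines the mean of 2 libraries. Psmb8, Psmb9, Psmb10, Psme1 and Psme2 are highest in the O-titled females, where Psme3 is at 19.9 and 23.6 CPM.

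Psmb10, the inducible counterpart of the trypsin-like subunit Psmb7, had 63.5, 52.0, 104.6 and 97.3 CPM in O-titled replicates 1 to 4 and 50.2, 41.4, 50.9 and 60.2 CPM in Y-titled replicates 1 to 4. Both O-titled females were far above all other libraries. Within each sex the O-titled libraries lay above the Y-titled ones, an order not counted over all tested genes. The log2 fold was 0.62 ± 0.15 (SE) at an edgeR adjusted p of 0.0255. Across the alternatives the adjusted p ran from 0.006 to 0.158, and the call was lost without O-titled replicate 1 (0.0601), 3 (0.0842) or 4 (0.0694) and without Y-titled replicate 3 (0.158) or 4 (0.0994).

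Psme1, the alpha subunit of PA28, had 135.7, 118.8, 174.5 and 184.2 CPM in O-titled replicates 1 to 4 and 119.8, 104.4, 89.9 and 105.4 CPM in Y-titled replicates 1 to 4. The O-titled females were highest, and the males of the 2 sets overlapped. The log2 fold was 0.54 ± 0.15 (SE) at an edgeR adjusted p of 0.0403. The adjusted p ran from 0.00534 to 0.226 over the alternatives, and the call was lost without O-titled replicate 1 (0.0576), 3 (0.0975) or 4 (0.131) and without Y-titled replicate 2 (0.0545), 3 (0.226) or 4 (0.164).

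Psmb9, the counterpart of the caspase-like subunit Psmb6, had 24.5, 32.0, 37.2 and 52.1 CPM in O-titled replicates 1 to 4 and 20.7, 13.8, 25.4 and 24.8 CPM in Y-titled replicates 1 to 4. Only O-titled replicate 1 lay within the range of the Y-titled libraries. These levels rest on 64, 24, 43 and 75 reads in O-titled and 33, 7, 28 and 28 reads in Y-titled replicates 1 to 4. The log2 fold of 0.70 ± 0.20 (SE) was the highest of any member and missed the threshold at an edgeR adjusted p of 0.0572. It passed without O-titled replicate 1 (0.0445) or 3 (0.0491) and with the looser filter on low counts (0.0269), within a range of 0.0269 to 0.244 over the alternatives.

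Psmb8, the counterpart of the chymotrypsin-like subunit Psmb5, had 46.6, 33.4, 77.8 and 98.7 CPM in O-titled replicates 1 to 4 and 47.7, 35.5, 56.3 and 48.7 CPM in Y-titled replicates 1 to 4. The males of the 2 sets had nearly the same levels, and the O-titled females were above every other library. Its log2 fold over both sexes was 0.40 ± 0.18 (SE), with an edgeR adjusted p of 0.292. Psme2, the beta subunit of PA28, had 119.7, 110.8, 175.4 and 190.5 CPM in O-titled replicates 1 to 4 and 104.7, 106.4, 128.1 and 153.3 CPM in Y-titled replicates 1 to 4. All 4 females lay above all 4 males, a separation by sex that was not counted over all tested genes. The Psme2 log2 fold by title was 0.27 ± 0.12 (SE) at an edgeR adjusted p of 0.285.

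None of the constitutive catalytic subunits was called by title. Psmb5 had 164.4, 161.5, 147.8 and 130.0 CPM in O-titled replicates 1 to 4 and 154.9, 143.8, 131.7 and 173.6 CPM in Y-titled replicates 1 to 4, a log2 fold of -0.01 ± 0.12 (SE) at an edgeR adjusted p of 0.988. Psmb6 had 175.5, 169.5, 153.8 and 180.0 CPM in O-titled and 153.0, 181.2, 155.3 and 168.3 CPM in Y-titled replicates 1 to 4, a log2 fold of 0.05 ± 0.12 (SE) at an edgeR adjusted p of 0.893. The groups overlapped for both genes. Psmb7 had 182.0, 194.9, 135.7 and 175.2 CPM in O-titled and 187.5, 183.2, 168.9 and 193.1 CPM in Y-titled replicates 1 to 4, a log2 fold of -0.10 ± 0.12 (SE) at an edgeR adjusted p of 0.767. O-titled replicate 3 was the lowest library for Psmb7.

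The share of reads from the inducible gene in each catalytic pair does not depend on library scaling, and it was given no test. Psmb8 made up 22.1, 17.1, 34.5 and 43.2% of the reads of Psmb8 and Psmb5 in O-titled replicates 1 to 4 and 23.5, 19.8, 29.95 and 21.9% in Y-titled replicates 1 to 4. The O-titled females had the highest shares. In O-titled replicate 4 the 95% Wilson interval was 37.9 to 48.6% and in Y-titled replicate 4 it was 17.2 to 27.4%. These intervals cover counting error only.

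Psmb9 made up 12.2, 15.9, 19.5 and 22.5% of the reads of Psmb9 and Psmb6 in O-titled replicates 1 to 4 and 11.9, 7.07, 14.1 and 12.8% in Y-titled replicates 1 to 4. Psmb10 made up 25.9, 21.1, 43.5 and 35.7% of the reads of Psmb10 and Psmb7 in O-titled replicates 1 to 4 and 21.1, 18.4, 23.1 and 23.8% in Y-titled replicates 1 to 4. For every pair both O-titled females lay above all Y-titled libraries. The mean share was higher in O-titled libraries by 5.42 percentage points for Psmb8, 6.04 for Psmb9 and 9.93 for Psmb10. The constitutive gene gave most of the reads of its pair in all 8 libraries. The mean read length was similar within each pair, at 1003 and 869 bases for Psmb8 and Psmb5, 849 and 804 bases for Psmb9 and Psmb6, and 953 and 938 bases for Psmb10 and Psmb7.

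**Figure D2:**
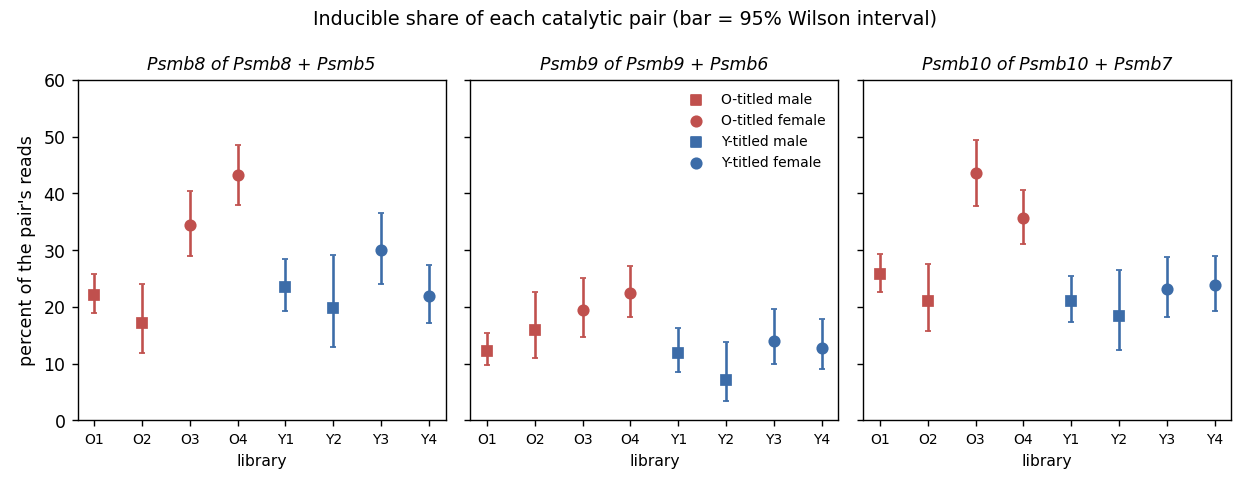
Percent of each catalytic pair's reads that came from the inducible gene (vertical axis) in each library (horizontal axis). Points are single libraries and bars 95% Wilson intervals. The O-titled females O3 and O4 have the highest share in all 3 pairs, up to 43.5% for Psmb10.

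Summed over the class, the inducible subunits reached 134.6, 117.4, 219.5 and 248.1 CPM in O-titled replicates 1 to 4 and 118.5, 90.6, 132.6 and 133.8 CPM in Y-titled replicates 1 to 4. The mean was 179.9 ± 63.7 CPM (SD, n = 4) in O-titled and 118.9 ± 20.1 CPM (SD, n = 4) in Y-titled libraries. The total over all members except Psmc3ip was 4034 ± 123 CPM (SD, n = 4) in O-titled and 4093 ± 89.5 CPM (SD, n = 4) in Y-titled libraries. This difference was smaller than either spread. The activators summed to 379.4 ± 55.2 CPM (SD, n = 4) in O-titled and 304.9 ± 38.4 CPM (SD, n = 4) in Y-titled libraries.

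The alpha ring, which gates entry to the core, had 7 tested members, and edgeR called 0 of them, with 0 at an unadjusted p under 0.05. Psma3 was its most abundant member, at 184.3, 208.2, 203.1 and 175.9 CPM in O-titled and 180.0, 189.1, 220.7 and 203.8 CPM in Y-titled replicates 1 to 4, a log2 fold of -0.04 ± 0.12 (SE) at an edgeR adjusted p of 0.925. The groups overlapped for Psma3. Psma7 had the smallest p of the class by title, with 153.3, 154.8, 128.7 and 150.8 CPM in O-titled and 176.3, 161.5, 169.8 and 160.3 CPM in Y-titled replicates 1 to 4. All 4 O-titled libraries lay below all 4 Y-titled ones for Psma7, but the log2 fold of -0.19 ± 0.11 (SE) had an edgeR adjusted p of 0.455. Psma7 was the 1 tested member with that separation, and no tested member had all O-titled libraries above all Y-titled ones. Over all tested genes 4.26% were separated downward and 4.15% upward. Psma5 had the smallest p of the class by sex, with 89.8, 102.8, 84.7 and 93.1 CPM in O-titled and 107.9, 88.6, 65.4 and 73.5 CPM in Y-titled replicates 1 to 4, and a female-over-male log2 fold of -0.30 ± 0.14 (SE) at an edgeR adjusted p of 0.385. Males and females overlapped.

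Of the 7 tested constitutive beta subunits edgeR called 0 by title, again with 0 at an unadjusted p under 0.05. Psmb1, a structural subunit with no active site, was the most abundant of all members, at 264.6, 262.9, 239.3 and 237.7 CPM in O-titled and 251.5, 246.2, 253.4 and 246.3 CPM in Y-titled replicates 1 to 4. Its log2 fold was 0.01 ± 0.10 (SE) at an edgeR adjusted p of 0.991, and the O-titled libraries lay on both sides of the Y-titled ones. Psmb2 was the lowest of the tested class, at 91.8, 81.4, 99.4 and 85.5 CPM in O-titled and 96.0, 98.5, 99.0 and 104.5 CPM in Y-titled replicates 1 to 4, a log2 fold of -0.15 ± 0.13 (SE) at an edgeR adjusted p of 0.645. O-titled replicate 3 kept the groups from separating. Psmb3 had the smallest p by title, with a log2 fold of -0.18 ± 0.12 (SE) at an edgeR adjusted p of 0.508, from 189.6, 170.8, 150.3 and 158.5 CPM in O-titled and 175.0, 210.7, 177.1 and 197.6 CPM in Y-titled replicates 1 to 4. Psmb4 had the smallest p by sex, with a female-over-male log2 fold of -0.19 ± 0.11 (SE) at an edgeR adjusted p of 0.553, from 227.1, 202.9, 187.5 and 182.8 CPM in O-titled and 217.7, 228.5, 204.4 and 197.6 CPM in Y-titled replicates 1 to 4. The groups overlapped for both genes.

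The 6 ATPases form the ring that unfolds substrates and threads them into the core. None was called by title in edgeR, with 0 at an unadjusted p under 0.05, and their log2 folds ran from -0.22 to 0.21. Psmc3 was the most abundant, at 109.0, 106.8, 97.6 and 93.8 CPM in O-titled and 110.4, 96.5, 96.3 and 103.6 CPM in Y-titled replicates 1 to 4, a log2 fold of -0.01 ± 0.12 (SE) at an edgeR adjusted p of 0.990. Psmc5 was the lowest, at 70.7, 64.1, 65.7 and 61.2 CPM in O-titled and 64.0, 51.2, 56.3 and 52.3 CPM in Y-titled replicates 1 to 4, a log2 fold of 0.21 ± 0.14 (SE) at an edgeR adjusted p of 0.516. The groups overlapped for both genes, for Psmc5 through Y-titled replicate 1. Psmc6 had the smallest p by title, with 86.4, 77.4, 96.8 and 83.4 CPM in O-titled and 93.5, 98.5, 98.1 and 112.5 CPM in Y-titled replicates 1 to 4, and a log2 fold of -0.22 ± 0.13 (SE) at an edgeR adjusted p of 0.443. Psmc1 had the smallest p by sex, with 100.2, 77.4, 89.0 and 84.8 CPM in O-titled and 114.2, 80.8, 90.8 and 75.3 CPM in Y-titled replicates 1 to 4, and a female-over-male log2 fold of -0.17 ± 0.14 (SE) at an edgeR adjusted p of 0.748. The groups overlapped for these genes too.

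The 14 non-ATPase proteins include the lid, the ubiquitin receptors and assembly chaperones. None was called by title in edgeR, 2 had an unadjusted p under 0.05, both lower in O-titled libraries, and the median log2 fold was -0.15. The ubiquitin receptor Psmd4 had 83.3, 100.1, 68.3 and 66.0 CPM in O-titled and 106.0, 102.4, 99.9 and 82.4 CPM in Y-titled replicates 1 to 4. Its O-titled females were the lowest 2 libraries, and it had the smallest p of the class by title, with a log2 fold of -0.33 ± 0.13 (SE) at an edgeR adjusted p of 0.215, and by sex, with a female-over-male log2 fold of -0.31 ± 0.13 (SE) at an edgeR adjusted p of 0.319. The other, the lid subunit Psmd11, named after its values were seen, had a log2 fold of -0.32 ± 0.15 (SE) at an edgeR adjusted p of 0.283. The lid subunit Psmd8 was the most abundant of the class, at 129.2, 149.5, 122.7 and 105.7 CPM in O-titled and 133.0, 133.9, 139.9 and 124.0 CPM in Y-titled replicates 1 to 4, a log2 fold of -0.08 ± 0.12 (SE) at an edgeR adjusted p of 0.827. Psmd10, the assembly chaperone gankyrin, was the lowest, at 16.1, 16.0, 15.6 and 11.8 CPM in O-titled and 18.2, 17.7, 10.9 and 12.4 CPM in Y-titled replicates 1 to 4, a log2 fold of 0.00 ± 0.24 (SE) at an edgeR adjusted p of 0.999. The groups overlapped for both genes. Psmf1, which inhibits the core, had 28.3, 20.02, 32.0 and 21.5 CPM in O-titled and 32.0, 29.5, 26.3 and 23.9 CPM in Y-titled replicates 1 to 4, a log2 fold of -0.11 ± 0.20 (SE) at an edgeR adjusted p of 0.866.

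**Figure D3:**
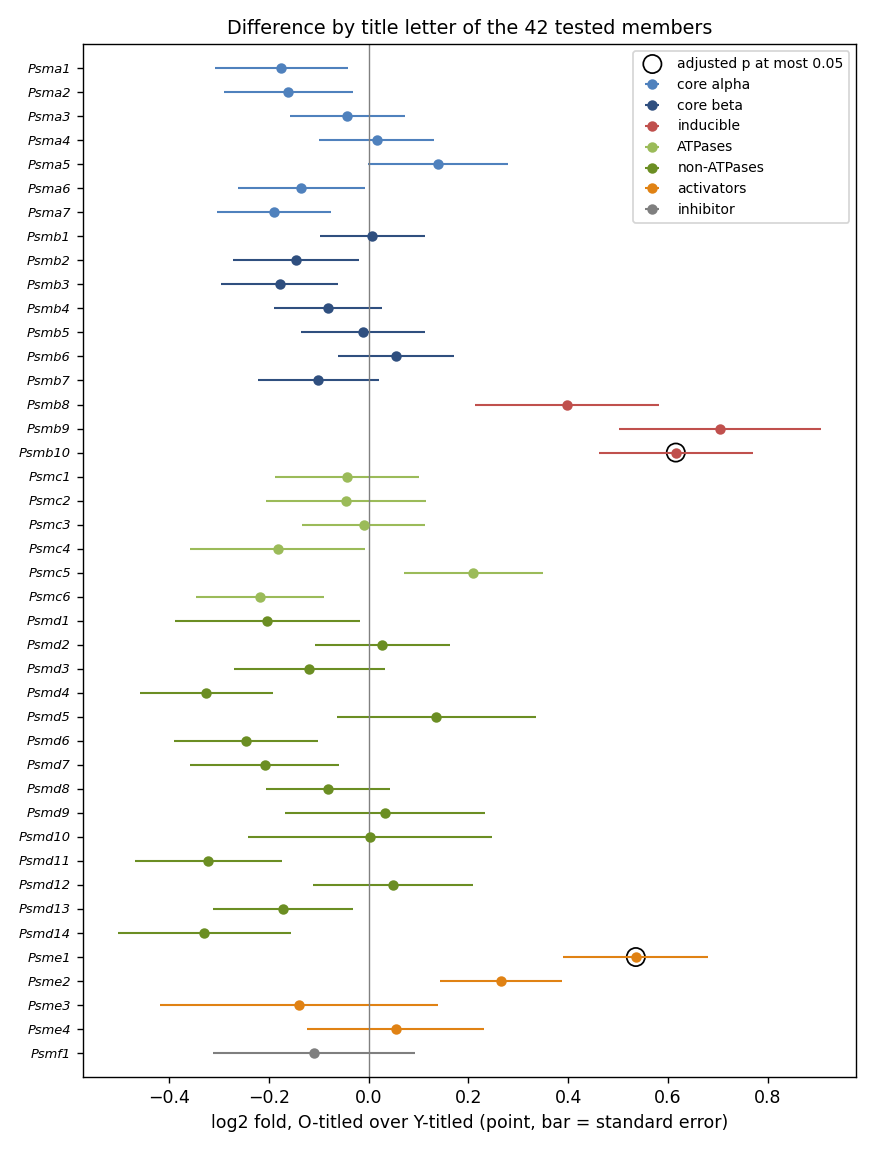
Log2 fold of O-titled over Y-titled libraries (horizontal axis) for the 42 tested members (vertical axis), coloured by class, with sex as a covariate. Points are edgeR estimates, bars 1 standard error, and rings mark an adjusted p of at most 0.05. Psmb9, Psmb10 and Psme1 lie at 0.54 or above, and the members outside the inducible subunits and PA28 lie between -0.33 and 0.21.

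By sex, 1 inducible subunit and 1 PA28 subunit were called, both higher in females. In the sex coefficient of the same fit, these were Psmb8 and Psme2, and edgeR called no member lower, where 1.79% of all tested genes were called higher in females and 1.21% lower. Psmb8 had a female-over-male log2 fold of 0.72 ± 0.18 (SE) at an edgeR adjusted p of 0.0363, and Psme2 one of 0.54 ± 0.12 (SE) at 0.0148. Mean Psmb8 was 40.0 CPM in males and 88.2 CPM in females of the O-titled set, and 41.6 and 52.5 CPM in the Y-titled set. For Psme2 these means were 115.2 and 182.9 CPM in the O-titled set and 105.6 and 140.7 CPM in the Y-titled set. DESeq2 and limma voom called Psme2 but not Psmb8, for which they gave adjusted p of 0.103 and 0.0765. Psmb10 (0.54 ± 0.15, SE, edgeR adjusted p 0.0678) and Psmb9 (0.62 ± 0.20, SE, edgeR adjusted p 0.122) did not pass, and Psme1 had a log2 fold of 0.16 ± 0.14 (SE) at an edgeR adjusted p of 0.763. Of the other 37 members 6 had a positive and 31 a negative female-over-male log2 fold, with a median of -0.12 beside a median of -0.00 over all tested genes, and none was called.

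The Psmb8 call by sex had an edgeR adjusted p of 0.179, 0.135, 0.0516 and 0.181 without O-titled replicates 1 to 4 in turn, and of 0.0634 and 0.0590 without Y-titled replicates 2 and 3. The Psme2 call had one of 0.0597, 0.0662 and 0.0616 without O-titled replicates 1, 2 and 4 and of 0.0687 without Y-titled replicate 4. Psmb10 passed by sex without Y-titled replicate 1 (edgeR adjusted p 0.0442) or 3 (0.0444) and with the looser filter on low counts (0.0274), within a range of 0.0274 to 0.249 over the alternatives. Over all alternatives the adjusted p ran from 0.00097 to 0.181 for Psmb8 and from 0.00358 to 0.0687 for Psme2.

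Between females, 2 inducible subunits and 1 PA28 subunit were called higher in O-titled libraries. In the fit with 4 groups of title letter and sex, edgeR called 4 members between O-titled and Y-titled females, Psme1, Psmb10 and Psmb8 higher and Psme3 lower, where 2.53% of all tested genes were called higher and 2.53% lower. Psme1 had a log2 fold of 0.88 ± 0.17 (SE) at an edgeR adjusted p of 0.00235, Psmb10 one of 0.86 ± 0.19 (SE) at 0.00983 and Psmb8 one of 0.75 ± 0.21 (SE) at 0.0437. For all 3 genes both O-titled females lay above both Y-titled females. These are the libraries that gave the calls, and such an order was not counted over all tested genes. DESeq2 called 1 of the 4 members, Psme1 (adjusted p 0.0300), and gave adjusted p of 0.177 for Psmb10, 0.459 for Psmb8 and 0.489 for Psme3. Limma voom called Psme1 and Psmb10 and gave adjusted p of 0.0704 for Psmb8 and 0.0773 for Psme3. Psmb9 had a log2 fold of 0.84 ± 0.27 (SE) at an edgeR adjusted p of 0.0781 and Psme2 one of 0.38 ± 0.16 (SE) at 0.229.

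Psme3, which encodes the nuclear cap PA28-gamma and is not known as an interferon-induced gene, had 38.2 and 38.7 CPM in the O-titled males, 19.9 and 23.6 CPM in the O-titled females, 25.7 and 21.7 CPM in the Y-titled males and 33.6 and 48.7 CPM in the Y-titled females. Within each sex the 2 sets did not overlap, a separation not counted over all tested genes, and they were ordered in opposite ways. The log2 fold was -0.91 ± 0.27 (SE) in females at an edgeR adjusted p of 0.0496 and 0.65 ± 0.27 (SE) in males at 0.413. Over both sexes it was -0.14 ± 0.28 (SE) at an edgeR adjusted p of 0.883. The remaining tested activator, the large single-chain cap Psme4, had a log2 fold over both sexes of 0.05 ± 0.18 (SE) at an edgeR adjusted p of 0.942.

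In males edgeR called 0 of the 42 members between the sets, as did DESeq2 and limma voom, with 1 member, Psme3, at an unadjusted p under 0.05, and 1.40% of all tested genes were called. Psmb8 had a log2 fold of -0.05 ± 0.24 (SE), Psmb10 of 0.33 ± 0.21 (SE), Psmb9 of 0.52 ± 0.31 (SE), Psme1 of 0.18 ± 0.17 (SE) and Psme2 of 0.14 ± 0.17 (SE). The test of the difference between the sexes called 0 members in edgeR, DESeq2 and limma voom, where 0.339% of all tested genes were called. At an unadjusted p under 0.05 there were 5 of the 42 members and 617 of the 7668 tested genes. Those 5, of which Psmc4 and Psmd12 are named after their values were seen, were Psme3 (log2 difference of -1.56 ± 0.38, SE, edgeR adjusted p 0.0844), Psme1 (0.70 ± 0.24, SE, adjusted p 0.389), Psmc4 (-0.77 ± 0.30, SE, adjusted p 0.464), Psmb8 (0.81 ± 0.32, SE, adjusted p 0.497) and Psmd12 (-0.66 ± 0.28, SE, adjusted p 0.544). A difference between the sexes in the title effect was therefore not shown for any member. With the looser filter on low counts the difference for Psme3 passed, at an edgeR adjusted p of 0.0202.

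Each within-sex contrast rests on 2 libraries a side, and leaving one out assumes that the lone library varies like the other groups. Without Y-titled replicate 3 the female calls of Psme1 (edgeR adjusted p 0.0829), Psmb10 (0.182) and Psmb8 (0.154) were lost, and Psmb8 also lost its call without O-titled replicate 4 (0.311) or Y-titled replicate 4 (0.304). The Psme3 call was lost without any of the O-titled replicates 1 to 4 (0.0526, 0.0512, 0.201 and 0.101) and without Y-titled replicate 1 (0.0525) or 4 (0.482). Calls were also gained, for Psmb9 without O-titled replicate 3 (0.0416) and for the ATPase gene Psmc4, lower, without O-titled replicate 4. Psmc4 had 77.6, 93.4, 44.1 and 67.4 CPM in O-titled and 69.0, 78.8, 87.2 and 79.7 CPM in Y-titled replicates 1 to 4, and with all libraries its log2 fold between females was -0.57 ± 0.21 (SE) at an edgeR adjusted p of 0.154.

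**Figure D4:**
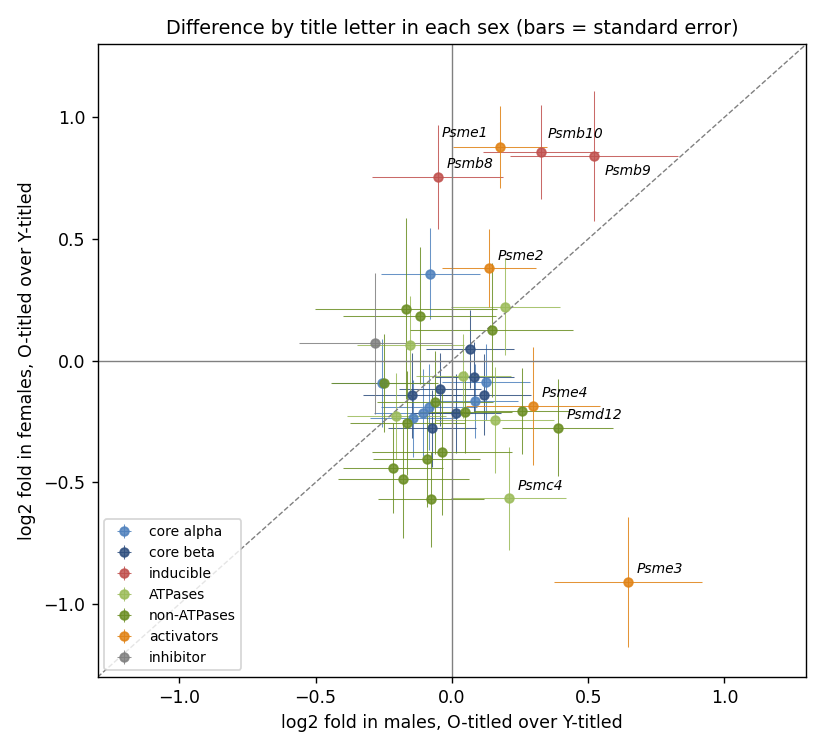
Log2 fold of O-titled over Y-titled libraries in males (horizontal axis) and in females (vertical axis) for the 42 tested members, coloured by class. Points are edgeR estimates, bars 1 standard error, and the dashed line marks equal folds. Psmb8, Psmb9, Psmb10 and Psme1 lie at 0.75 or above in females, and Psme3 lies at 0.65 in males and -0.91 in females.

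The 4 members under the count filter were given by their reads. Psma8, the testis form of an alpha subunit, had 3, 1, 1 and 2 reads in O-titled and 0, 0, 2 and 0 in Y-titled replicates 1 to 4, and Psmc3ip had 4 reads in O-titled and 1 in Y-titled libraries in all. Psme2b, a retrotransposed copy of Psme2, had 8, 3, 7 and 6 reads in O-titled and 8, 2, 4 and 6 in Y-titled replicates 1 to 4, and reads of Psme2 and Psme2b could be split between the copies. Exact two-sided permutation tests of 4 against 4 libraries gave adjusted p of 0.429 for Psma8, 0.557 for Psmc3ip and 0.943 for Psme2b, where the smallest unadjusted p that such a test can give is 0.0286. Psmb11, the thymus form of Psmb5, had 0 reads in all 8 libraries, below a floor of 3 reads that corresponds to 1.16 CPM in the deepest library and 5.50 CPM in the shallowest.

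Most members were read from one transcript. Of the 42 tested members 32 had more than 90% of their reads on one transcript, and the most abundant transcript was annotated as protein-coding in all 42. The reads of Psmd8, Psmd4, Psmc3 and Psma7 were spread most, with 33.1, 43.0, 52.0 and 52.8% on their leading transcript. Transcript usage by title could be tested for 9 members (Psmd4, Psmc2, Psmd8, Psmd11, Psmc3, Psme2, Psma3, Psma7 and Psmb1), and edgeR's diffSpliceDGE called 0 of them, with 0 at an unadjusted p under 0.05. Over all 1555 genes tested for usage it called 0%, with 12 genes at an unadjusted p under 0.05. On simulated counts this test called 8% of genes whose leading transcript changed by a log2 of 1, and 80% at a log2 of 2. The absence of calls therefore does not show that usage was unchanged. The mean read length was 73.3% of the length of the leading transcript at the median, from 29.6% for Psma2 to 101% for Psmb6.

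Genes that work with the proteasome were counted from fixed lists in the same edgeR fit by title. Of 6 tested assembly chaperones, 5 ubiquitin and E1 genes, 9 regulators of proteasome transcription and 14 proteasome-bound receptors, deubiquitinases and partners, 0 were called, with 0, 0, 1 and 3 at an unadjusted p under 0.05. The summed level of the proteasome-bound partners was 745.8 to 827.4 CPM in O-titled and 856.2 to 915.5 CPM in Y-titled libraries, without overlap. These sums were not tested, and of single tested genes 4.26% were likewise separated downward. Among 12 tested genes of the segregase Vcp, which extracts proteins for the proteasome, and its cofactors, 2 were lower in O-titled libraries. These were Ubxn1 (log2 fold -0.86 ± 0.14, SE, edgeR adjusted p 0.0012) and the ubiquitin ligase gene Syvn1 (-0.77 ± 0.20, SE, edgeR adjusted p 0.0276). Between females the ubiquitin shuttle gene Ubqln1 was lower (-0.90 ± 0.22, SE, edgeR adjusted p 0.0161) and the transcription factor gene Foxo3 higher (2.06 ± 0.47, SE, edgeR adjusted p 0.00983) in O-titled libraries. By sex, Nploc4, a cofactor of Vcp, was lower in females (-0.62 ± 0.16, SE, edgeR adjusted p 0.0394).

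Class I antigen presentation uses the peptides that the proteasome makes. Of 16 tested genes of this list outside the proteasome, edgeR called 1 by title, H2-Q6, a class I gene, higher in O-titled libraries (log2 fold 0.80 ± 0.20, SE, adjusted p 0.0278), with 11 positive and 5 negative folds and a median of 0.21. Tapbp, which tethers class I molecules to the peptide transporter, and the class I gene H2-Q4 were higher in O-titled females (0.65 ± 0.18, SE, edgeR adjusted p 0.0437, and 1.26 ± 0.31, SE, edgeR adjusted p 0.0175). Class I genes are near-identical copies, so reads could be split between them. Of 23 tested genes of interferon signalling and its targets, 1 was higher by title, Ifi27 (0.62 ± 0.14, SE, edgeR adjusted p 0.0140; 0.70 ± 0.19, SE, edgeR adjusted p 0.0323, between females), and 1 was lower, Iigp1 (-0.56 ± 0.13, SE, edgeR adjusted p 0.0151), and the median log2 fold of the list was -0.03. By sex 20 of the 23 had a positive female-over-male log2 fold, with a median of 0.40, and 2 were called, the transcription factor gene Irf1 (0.75 ± 0.20, SE, edgeR adjusted p 0.0414) and the guanylate-binding protein gene Gbp3 (1.56 ± 0.31, SE, edgeR adjusted p 0.0053).

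One marker of Kupffer cells and macrophages and 1 of B cells were called higher in O-titled libraries. All 16 tested markers of Kupffer cells and macrophages had a positive log2 fold, with a median of 0.70, and edgeR called 1, the lysosomal protease gene Ctss (0.71 ± 0.18, SE, adjusted p 0.0295; 1.01 ± 0.22, SE, adjusted p 0.00792, between females). Their summed level was 1855, 702.0, 1971 and 1536 CPM in O-titled and 922.0, 846.9, 991.8 and 1020 CPM in Y-titled replicates 1 to 4. O-titled replicate 2 was the lowest of all 8 libraries by this sum, and O-titled replicates 3 and 1 were the highest. The summed inducible subunits were 134.6, 117.4, 219.5 and 248.1 CPM in O-titled and 118.5, 90.6, 132.6 and 133.8 CPM in Y-titled replicates 1 to 4. The 7 B cell markers summed to 18.1 to 38.9 CPM in O-titled and 6.2 to 8.2 CPM in Y-titled libraries, and the 1 tested, Jchain, was higher in O-titled libraries (4.22 ± 0.60, SE, edgeR adjusted p 0.000219). The 12 markers of T and NK cells summed to 26.8, 6.7, 59.6 and 33.4 CPM in O-titled and 12.5, 17.7, 13.6 and 20.4 CPM in Y-titled replicates 1 to 4. The 1 tested had a log2 fold of 1.42 by title and 2.19 between females, and edgeR called it in neither. Every marker of these lists had at least 1 read in some library. The part of these cells in the levels of the inducible subunits and PA28 was not tested.

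Of the markers of other cells, Dcn of stellate cells and Fcgr2b of sinusoidal endothelium were higher in O-titled libraries (log2 folds of 0.59 ± 0.12, SE, and 0.62 ± 0.17, SE, at edgeR adjusted p of 0.00744 and 0.0394), also between males. The 10 tested endothelial markers had 4 positive and 6 negative log2 folds by title, with a median of -0.09. The 7 tested stellate markers had 6 positive and 1 negative, with a median of 0.15. The hepatocyte genes Ttr and Hnf4a were lower in O-titled females (-0.54 ± 0.14 and -0.56 ± 0.15, SE, edgeR adjusted p 0.0263 and 0.0329). Between females the 10 hepatocyte markers had 4 positive and 6 negative log2 folds, from -0.72 to 0.57, with a median of -0.18. Of the red cell markers Alas2 was lower in females, and Hbb-bt was lower in O-titled males and differed in its title effect between the sexes (edgeR adjusted p 2.35e-08, 0.00937 and 0.0255). Of the 5 cholangiocyte and 6 neutrophil markers 1 and 2 were tested by title and 0 called, with 0 and 1 at an unadjusted p under 0.05. Their part in the members' levels was not tested.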

How the data were processed

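Liver RNA of 8 mice was sequenced as native polyadenylated molecules by nanopore direct RNA sequencing. The deposited tables hold raw read counts per transcript, made by the authors with no normalization, 1 library a table, together with the mean length of the reads per transcript, per the file headers. The submitters' processing notes name minimap2 2.24, the mm10 build and, with no role, DESeq2. How reads were counted, on which annotation release, and how multiply matching reads were assigned is not given in the sources used here, and no column of another series was present. Positions came from GENCODE release M21.

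Counts were summed per gene. Genes were kept with filterByExpr (minimum count of 10, by title and sex), libraries were scaled by TMM, and edgeR 4.0.16 (R 4.3.3) fitted a robust quasi-likelihood model with title and sex, and a second with the 4 groups, at a Benjamini-Hochberg adjusted p of 0.05 over all 7668 genes. The standard errors (SE) of edgeR folds were back-calculated, as the absolute log2 fold over the square root of the quasi-likelihood F statistic. The scripts were tested on simulated data first. Alternatives were DESeq2 1.42.0, limma 3.58.1 voom, RLE size factors, other filters, no sex covariate, the replicate number as a block and each library left out.

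The series text calls the replicates biological, and the files give 8 distinct animals. Between libraries of one title and sex the chi-square of counts was 4.00 to 10.7 times its degrees of freedom, above counting noise, so no table was treated as a repeat deposit of another. Same-numbered libraries deviated together from their title means, with correlations of 0.383, 0.21, 0.223 and 0.363, though none correlated best with its own number. The main fits hold no block, and the fit with the number as a block is given beside the title result. Numbers 1 and 2 are males and 3 and 4 females, and within title and sex the correlations were -0.044 and -0.04. No label ties the numbers to a shared litter or day.

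The members and lists were chosen with earlier results of these data known. Per-library values are given for the catalytic pairs, PA28, members called in any main comparison, and in each class the highest, the lowest and those with the smallest p by title and sex. Of the other lists every called gene is named, except 1 result that is not reported here. Psma8, Psme2b and Psmc3ip, under the filter, were tested on log2(CPM + 0.5).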

Additional observations from a re-analysis of the deposited data

Results flagged for a closer look

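In 102 groups of 4 libraries (each tested member in each title group, and the class sums and shares), the highest or lowest library was tested for standing far from the other 3, and 4 did, where chance alone flags about 1 in 20. Psma7 had 128.7 CPM in O-titled replicate 3, below 150.8 to 154.8 CPM in the other O-titled libraries. Psmc2, an ATPase, had 49.2 CPM in Y-titled replicate 2, the shallowest library, below 68.2 to 69.9 CPM in the others. Psmd9, an assembly chaperone, had 39.5 CPM in Y-titled replicate 1, above 31.5 to 32.8 CPM. Psmd10 had 11.8 CPM in O-titled replicate 4, below 15.6 to 16.1 CPM.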

How the results depend on the processing

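By title, 2 members were called, and the count was 0 with DESeq2, 1 with limma voom, 0 without the sex covariate, 0 with the replicate block in place of sex and 0 to 2 with each library left out. With RLE size factors, the looser filter on low counts and a filter by title group, which was chosen after the data were seen, it was 2, 3 and 2. By sex, 2 members were called, and the count was 1 with DESeq2, 1 with limma voom and 0 to 3 with each library left out. Between females 4 members were called, and the count was 1 with DESeq2, 2 with limma voom and 1 to 4 with each library left out. Between males the count was 0 under every alternative run. For the difference between the sexes it was 0 except with the looser filter, where it was 1 (Psme3). Transcript usage and the members under the filter gave 0 under every alternative run. None of the log2 folds followed across the alternatives changed sign (the inducible subunits by title, by sex and between females, Psme1 by title and between females, Psme2 by title and by sex, and Psme3 between females and in the difference between the sexes), and the inducible shares counted on the leading transcript alone differed by 5.72, 6.04 and 9.93 percentage points. The cause was not tested. Depth limits members under about 20 CPM, such as Psmd10 with 9 to 42 reads a library, more than the core subunits. Psmb9 had as few as 7 reads, in Y-titled replicate 2.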
